A study of Drosophila melanogaster with 24 samples.

Results

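Neuropeptide and peptide hormone genes were followed in adult Drosophila melanogaster heads over age, sex and genotype. They were chosen by their FlyBase symbols from a list of 34, and all 34 were found among the 17606 genes of the deposited table. Of these, 31 reached 10 normalized counts in at least 3 libraries and were tested, among 12493 tested genes in all. A normalized count is the number of reads on a gene divided by a scaling factor for the library. The remaining 3 were RYamide (RYa), known to reduce feeding, and Burs and Pburs, the subunits of the tanning hormone bursicon, whose highest values were 7.59, 7.59 and 9.23 normalized counts.

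Total RNA depleted of ribosomal RNA was sequenced from heads of 2 genotypes, called here H3.3Anull (labelled H3.3Adelta) and H3.3K36R (labelled H3.3BK36R). Flies of both genotypes lacked H3.3A function, with an H3.3A null allele over a deficiency chromosome, so that H3.3B was their only source of the histone variant H3.3. H3.3Anull flies carried wild-type H3.3B, and H3.3K36R flies carried an H3.3B in which lysine 36 was replaced by arginine in every cell. All X chromosomes also carried y and w alleles, and the second chromosome pair (H3.3A2x1 over Df(2L)Bsc110) was the same in both genotypes. The control was thus itself a mutant, and no group with functional H3.3A was analysed here. Heads were taken from females and males, either young (0 to 2 days after eclosion) or old (21 to 25 days), with 3 libraries for each of the 8 groups and 10 to 25 pooled flies per library. One young male H3.3K36R library, replicate 2, did not enter the tests, which used 23 libraries, 2 of them from young male H3.3K36R heads. In that library midgut markers summed to 98244 and male reproductive markers to 35682 normalized counts, against at most 12371 and 385 in the others. Nothing in the labels says whether replicates of a group came from separate crosses, so p-values measure the spread between these libraries.

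Neuropeptides are cut from larger precursor proteins, stored in dense-core vesicles and released by small groups of neurons or endocrine cells, and most act through G protein-coupled receptors. In the fly head they come from neurosecretory cells of the pars intercerebralis, from clock, olfactory and visual system neurons and from the subesophageal zone, and some of the same genes are also used by endocrine cells of the gut. They adjust feeding, water balance, sleep, courtship, muscle tone and the hormone cascade of moulting, and a precursor gene may be expressed in very few cells of the head.

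Each library had 21263006 to 42763126 reads on genes. The 6 neuronal marker genes (elav, nSyb, Syt1, brp, Rdl and para) were read in every library, with summed levels of 94455 to 265981 normalized counts, and the lowest sum came from young male H3.3K36R replicate 3. Markers of the ventral nerve cord or abdomen (Ubx, abd-A and Abd-B) summed to 11.4 to 218 normalized counts. Libraries differed in the share of 2107 otherwise silent autosomal genes that had a read, from 7.02% to 57.2%, and 5 libraries were above 40%. His3.3A was listed at 269.6 to 525 normalized counts and His3.3B at 18412 to 26536, and the K36R substitution itself cannot be seen in gene counts. In RNA from whole heads, fewer cells of a type and less RNA per cell cannot be told apart, which holds for each difference given here.

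The levels of the peptide genes covered a wide range. Per kilobase of exon, the median normalized count over the 23 libraries was highest for CCHa2, a nutrient-related peptide of the fat body, gut and brain, at 2151. Myosuppressin (Ms) followed at 1975, short neuropeptide F (sNPF) at 1442, allatostatin C (AstC) at 1392, ion transport peptide (ITP) at 1127 and hugin (Hug) at 1039.8 per kilobase. In this order of the 31 tested genes each of the 30 neighbouring pairs had ranges over the libraries that overlapped. Proc, Dh31, Dh44, Crz, Orcokinin, Tk, AstA, Nplp1, Mip, Dsk, SIFa, NPF and Capa lay between 889 and 357 per kilobase. Leucokinin (Lk, 158), CCHa1 (134) and FMRFa (76.8) were lower, and CNMa, Gpb5, Gpa2, Ptth, Eh, ETH, AstCC, CCAP and amn lay between 32.5 and 1.92 per kilobase. In all, 22 of the 34 genes had at least 50 normalized counts in every library, and 10 stayed under 50 in every library, so that the latter rest on few reads. ITP, which promotes water retention, was the steadiest of the 31, at 4529 to 5918 normalized counts over ages, sexes and genotypes.

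The first question was how peptide genes differed between young and old heads. In H3.3Anull heads 15 of the 31 genes differed with age, 10 higher and 5 lower in old heads. This was 48.4% of the peptide genes, against 41.9% of all tested genes called, 21.5% higher and 20.4% lower. In H3.3K36R heads 14 differed, 8 higher and 6 lower, or 45.2%, against 40.4% of all tested genes called, 20.5% higher and 19.9% lower. The share of peptide genes that differed with age was near that of all genes. The median log2 fold change (old minus young, on log2(normalized count + 1)) of the 31 was 0.24 in H3.3Anull and 0.16 in H3.3K36R heads, beside 0.04 and 0.03 over all tested genes. Orcokinin, Mip, Hug, Ms, Crz, Dsk and NPF were higher in old heads of both genotypes, and SIFa, Proc, Tk and Nplp1 were lower in both. These 11 had the same direction in both genotypes, and the same share over all tested genes was not taken. The age differences of H3.3Anull and H3.3K36R heads came from separate libraries, fitted together by limma with sex as a covariate, and adjusted p-values were taken over all tested genes.

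**Figure D1:**
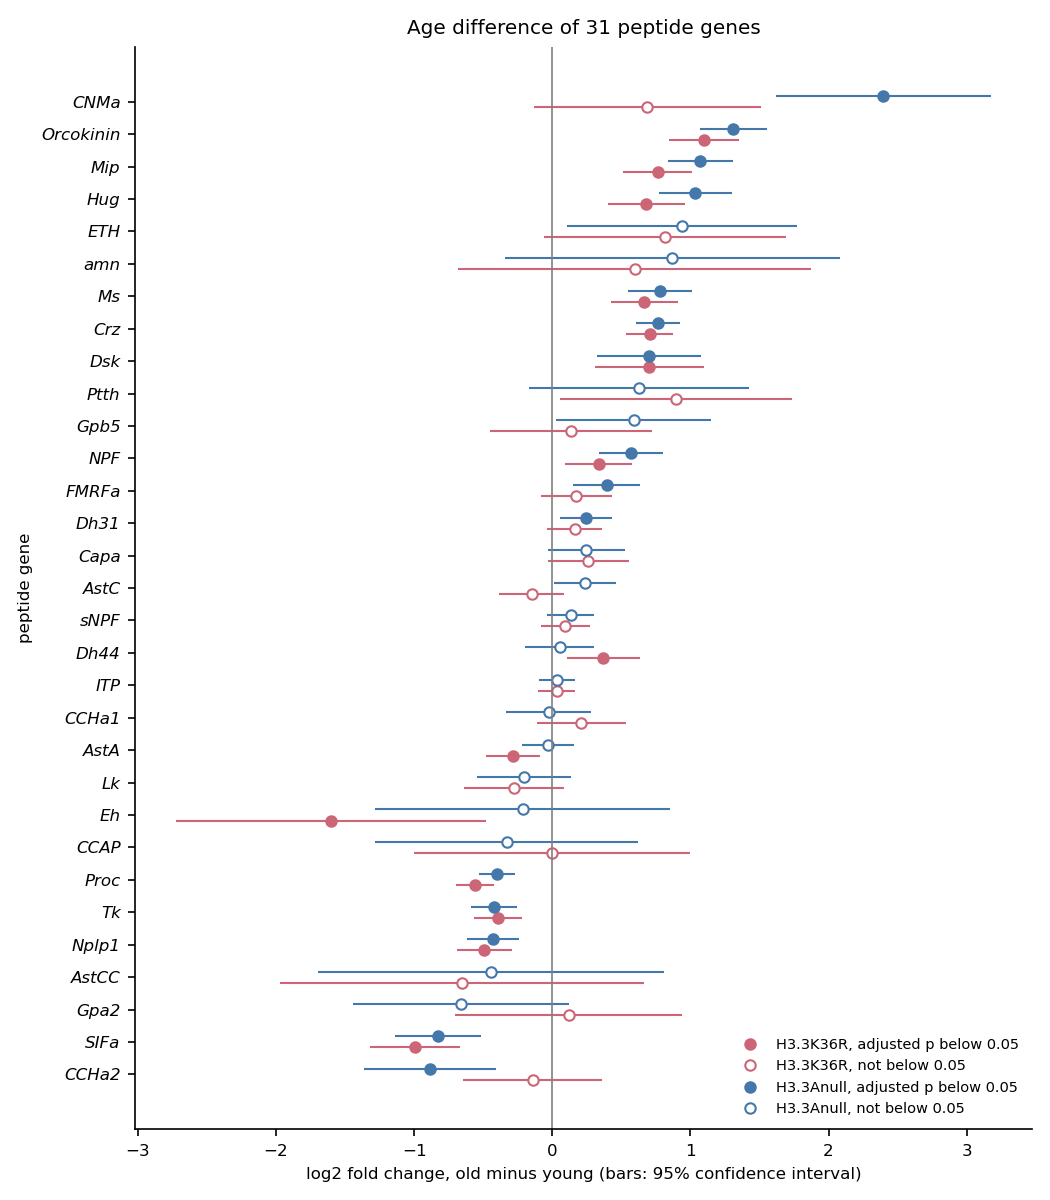
Log2 fold change of old minus young heads (x axis) for each of the 31 tested peptide genes (y axis), with 95% confidence intervals from limma, in H3.3Anull (blue) and H3.3K36R (red). Filled points have an adjusted p under 0.05. Orcokinin, Mip and Hug lie to the right in both genotypes, SIFa and Proc to the left in both, and CNMa and CCHa2 are filled in H3.3Anull only.

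Among genes named for arousal, courtship, stress and memory, Orcokinin had the smallest adjusted p with age. It codes for the orcokinin peptides of brain neurons and gut endocrine cells (FBgn0034935, chromosome arm 2R from 23946959 to 23949076 of dm6, minus strand). Orcokinin stood at 345 to 671 (median 503) normalized counts in the 6 young H3.3Anull libraries and 996 to 1376 (median 1265) in the 6 old H3.3Anull libraries, for a log2 fold change of 1.31 (SE 0.12, adjusted p = 1.4e-08). In H3.3K36R, with young females named first, it stood at 495, 492, 371, 594 and 414 normalized counts in the 5 young H3.3K36R libraries and 955 to 1089 (median 1000.3) in the 6 old H3.3K36R libraries, for a log2 fold change of 1.10 (SE 0.12, adjusted p = 3.6e-07). No old library overlapped a young one in either genotype. Corazonin (Crz), a stress peptide related to gonadotropin-releasing hormone, rose likewise, from 267 to 373 (median 328) to 404 to 718 (median 556) normalized counts in H3.3Anull (log2 fold change 0.77, SE 0.077, adjusted p = 7.2e-08) and by 0.70 on the log2 scale in H3.3K36R (adjusted p = 4.9e-07). Old and young Crz libraries were separate in both genotypes.

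SIFamide (SIFa), made by a few neurons of the pars intercerebralis with roles in courtship, sleep and appetite, was lower in old heads (chromosome arm 2R from 24577566 to 24578143 of dm6, minus strand). SIFa stood at 235 to 578 (median 382) normalized counts in the 6 young H3.3Anull libraries and 166 to 254 (median 218) in the 6 old H3.3Anull libraries, for a log2 fold change of -0.83 (SE 0.15, adjusted p = 0.00012). In H3.3K36R it stood at 239, 179, 309, 196 and 326 normalized counts in the 5 young H3.3K36R libraries and 106 to 141 (median 129) in the 6 old H3.3K36R libraries, for a log2 fold change of -0.99 (SE 0.16, adjusted p = 3.0e-05). The H3.3K36R ages did not overlap, and in H3.3Anull they overlapped over the pooled sexes and not within a sex. SIFa shares exon positions with Start1 on the opposite strand, and Start1 passed the test in none of the 6 comparisons. Neuropeptide-like precursor 1 (Nplp1), which signals between clock neurons, was -0.43 (adjusted p = 0.00061) in H3.3Anull and -0.49 (adjusted p = 0.00029) in H3.3K36R, both as log2 fold changes of old minus young.

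**Figure D2:**
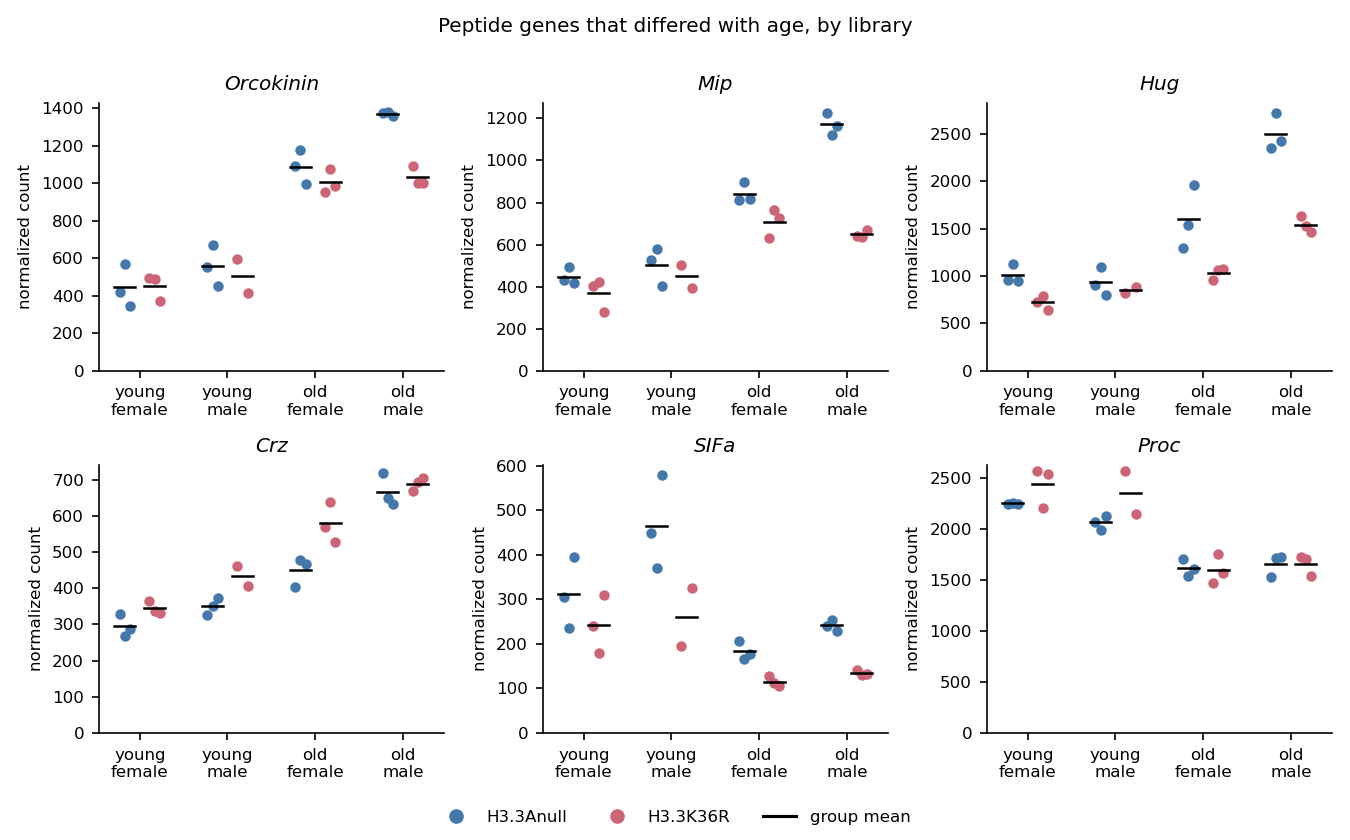
Normalized counts (y axis, from 0) of 6 peptide genes in each of the 23 libraries, by age and sex (x axis), H3.3Anull in blue and H3.3K36R in red, with a black bar at each group mean. Orcokinin, Mip, Hug and Crz are higher and SIFa and Proc lower in old than in young heads, in each sex and genotype by the means.

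Of the muscle and allatoregulatory peptides, myoinhibitory peptide (Mip, also allatostatin B), which dampens muscle and is linked to sleep, stood at 403 to 578 (median 464) normalized counts in the 6 young H3.3Anull libraries and 813 to 1227 (median 1009) in the 6 old H3.3Anull libraries, for a log2 fold change of 1.07 (SE 0.12, adjusted p = 1.8e-07). In H3.3K36R heads Mip stood at 404, 420.5, 279.7, 502 and 396 normalized counts in the 5 young H3.3K36R libraries and 634 to 765 (median 656) in the 6 old H3.3K36R libraries, for a log2 fold change of 0.76 (SE 0.12, adjusted p = 3.0e-05). Every old library was above every young one in both genotypes. Ms, which relaxes visceral muscle, rose by 0.78 on the log2 scale in H3.3Anull and by 0.67 in H3.3K36R (adjusted p = 7.9e-06 and 9.4e-05), again with no overlap. Proctolin (Proc), which stimulates muscle contraction, was lower in old heads, from 1996 to 2257 (median 2189) to 1527 to 1729.7 (median 1658) normalized counts in H3.3Anull (log2 fold change -0.40, SE 0.063, adjusted p = 2.4e-05). In H3.3K36R heads Proc fell by 0.56 (adjusted p = 6.5e-07), and old and young libraries were apart in both genotypes. FMRFa, whose peptides act at the neuromuscular junction, passed the test in H3.3Anull (0.39, adjusted p = 0.0098) and not in H3.3K36R (0.17, adjusted p = 0.28). The somatostatin-like AstC did not pass in either, at 0.24 (adjusted p = 0.089) and -0.15 (adjusted p = 0.33).

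Of the feeding and gut peptides, Hug, made in the subesophageal zone and known to restrain feeding, stood at 798 to 1131 (median 949.7) normalized counts in the 6 young H3.3Anull libraries and 1298 to 2720.3 (median 2157) in the 6 old H3.3Anull libraries, for a log2 fold change of 1.04 (SE 0.13, adjusted p = 1.1e-06). In H3.3K36R heads Hug rose by 0.68 on the log2 scale (adjusted p = 0.00030). Old and young libraries did not overlap in either genotype. The satiety peptide drosulfakinin (Dsk), related to cholecystokinin, rose by 0.70 and 0.70 (adjusted p = 0.0034 and 0.0052), with libraries that overlapped. Neuropeptide F (NPF), the fly relative of neuropeptide Y, rose by 0.57 and 0.34 (adjusted p = 0.00027 and 0.025). Tachykinin (Tk), used in brain and gut, was lower in old heads, at -0.42 (adjusted p = 0.00020) and -0.39 (adjusted p = 0.00072). AstA, which inhibits feeding, passed in H3.3K36R (-0.28, adjusted p = 0.020) and not in H3.3Anull (-0.032, adjusted p = 0.81), and sNPF passed in neither.

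CNMamide (CNMa), a gut and brain peptide linked to amino acid shortage, had the largest age difference in H3.3Anull heads of the 31 genes. In H3.3Anull females CNMa stood at 58.4, 53.2 and 20.3 normalized counts when young and 311, 513 and 309 when old. In H3.3Anull males it stood at 30.4, 35.8 and 34.2 when young and 53.9, 135 and 159 when old. Each old library was above the young ones of its sex, with the highest values in old females, for a log2 fold change of 2.40 (SE 0.38, adjusted p = 2.4e-05). In H3.3K36R heads CNMa stood at 30.2, 159, 60.7, 51.5 and 48.9 normalized counts in the 5 young H3.3K36R libraries and 61.8 to 200.1 (median 71.9) in the 6 old H3.3K36R libraries, for a log2 fold change of 0.69 (SE 0.40, adjusted p = 0.18), which did not pass the test. The 159 came from young female H3.3K36R replicate 2, where 54.7% of the silent genes were read. The other young H3.3K36R values were below every old one. CCHa2 was lower in old H3.3Anull heads, at 1934 to 3934 (median 3406) normalized counts when young and 957 to 3549 (median 1750.1) when old (log2 fold change -0.89, SE 0.23, adjusted p = 0.0035). In H3.3K36R heads CCHa2 gave -0.14 (adjusted p = 0.69).

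Among water and ion balance peptides, the calcitonin-like Dh31 rose with age in H3.3Anull (0.25, adjusted p = 0.035), and the corticotropin-releasing factor-like Dh44 rose in H3.3K36R (0.37, adjusted p = 0.023). The corresponding values in the other genotype were 0.16 (adjusted p = 0.19) for Dh31 and 0.054 (adjusted p = 0.75) for Dh44. Capa (0.25, adjusted p = 0.15 in H3.3Anull), ITP (0.034, adjusted p = 0.69) and Lk (-0.20, adjusted p = 0.34) did not pass in either genotype. In refits that each left out 1 of the 23 libraries, the Dh31 call was lost in 6. In H3.3K36R those of NPF and eclosion hormone (Eh) were lost in 4 refits each, that of Dh44 in 3 and that of AstA in 2, and each of NPF, Eh and Dh44 was lost without young female H3.3K36R replicate 3. The neuronal markers moved too, with 3 of 6 lower in old H3.3Anull and 2 of 6 in old H3.3K36R heads and none higher. Their sums were 217439.5 to 265981 and 145118 to 199343 normalized counts in young and old H3.3Anull libraries, and 94455 to 259981 and 129590.2 to 188398 in young and old H3.3K36R libraries. The 94455 came from young male H3.3K36R replicate 3. The other young H3.3K36R libraries held 220101.5 to 259981, above every old one. Of the 5 glial markers, 3 were lower in old H3.3Anull (median -0.56) and 4 in old H3.3K36R heads (median -0.40), with none higher. Glial sums were 65629 to 104484 in young and 50332 to 57327 in old H3.3Anull libraries, which did not overlap, and 49126 to 91793 and 40896 to 59819.9 in H3.3K36R libraries. Of the 4 eye markers, 2 were higher and 2 lower in old H3.3Anull, and 2 lower in old H3.3K36R heads. The part of these markers in the age differences was not tested.

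Within single sexes, Orcokinin, Mip, Hug, Ms and Crz were called higher, and SIFa and Proc lower, in old heads of both sexes and both genotypes. In females 11 of the 31 differed in H3.3Anull heads, 7 of them higher (30.2% of all tested genes called), and 14 in H3.3K36R heads, 7 of them higher (37% called). In males 15 differed in H3.3Anull heads, 11 of them higher (26.5% called), and 9 in H3.3K36R heads, 6 of them higher (19.2% called), the last with 2 young libraries. The shares of all tested genes called count both directions, and shares by direction were not taken within sexes. AstC was higher in 1 set and lower in another, at 0.53 (adjusted p = 0.0013) in H3.3Anull males and -0.28 (adjusted p = 0.047) in H3.3K36R females. CCHa2 gave -1.40 (adjusted p = 0.00058) in H3.3Anull males and -0.37 (adjusted p = 0.29) in H3.3Anull females. No peptide gene had a sex by age interaction at an adjusted p under 0.05 by limma, against 0.728% of all tested genes called. At an unadjusted p under 0.05 there were 9 of the 31, beside 18.7% of all tested genes.

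The second question was how H3.3K36R heads differed from H3.3Anull heads of the same age. In young heads 6 of the 31 genes differed (19.4%), 1 higher and 5 lower in H3.3K36R, against 9.21% of all tested genes called, 4.8% higher and 4.4% lower. In old heads 12 differed (38.7%), 1 higher and 11 lower, against 18.6% of all tested genes called, 10% higher and 8.59% lower. The median log2 fold change (H3.3K36R minus H3.3Anull) of the 31 was -0.16 in young and -0.26 in old heads, beside 0.02 and -0.0025 over all tested genes. Tk, SIFa, Nplp1, Dh31 and sNPF were lower in H3.3K36R at both ages, Crz was higher in young heads, and AstA, AstC, Mip, Hug, FMRFa and CNMa were lower and CCHa2 higher in old heads. None of the 6 neuronal markers passed the test with genotype at either age, and their median log2 fold changes were -0.36 in young and -0.13 in old heads. The young value includes young male H3.3K36R replicate 3, with a neuronal sum of 94455 normalized counts. The other young H3.3K36R libraries held 220101.5 to 259981 and the young H3.3Anull libraries 217439.5 to 265981. Of the 4 eye markers (ninaE, ninaC, trp and Arr2), none passed in young and 1 was lower in old H3.3K36R heads, with median log2 fold changes of 0.051 and -0.30. Summed over the eye markers, old H3.3K36R libraries held 750718 to 960836 normalized counts and old H3.3Anull libraries 1022374 to 1216633, with no overlap. Most of this sum was ninaE, with a median over the 23 libraries of 641154, against 55328, 37725 and 77789 for ninaC, trp and Arr2. Of the 5 glial markers (repo, moody, Gs2, Eaat1 and nrv2), 1 was lower in young and none passed in old H3.3K36R heads, with medians of -0.18 and -0.10. The part of these markers in the genotype differences was not tested.

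**Figure D3:**
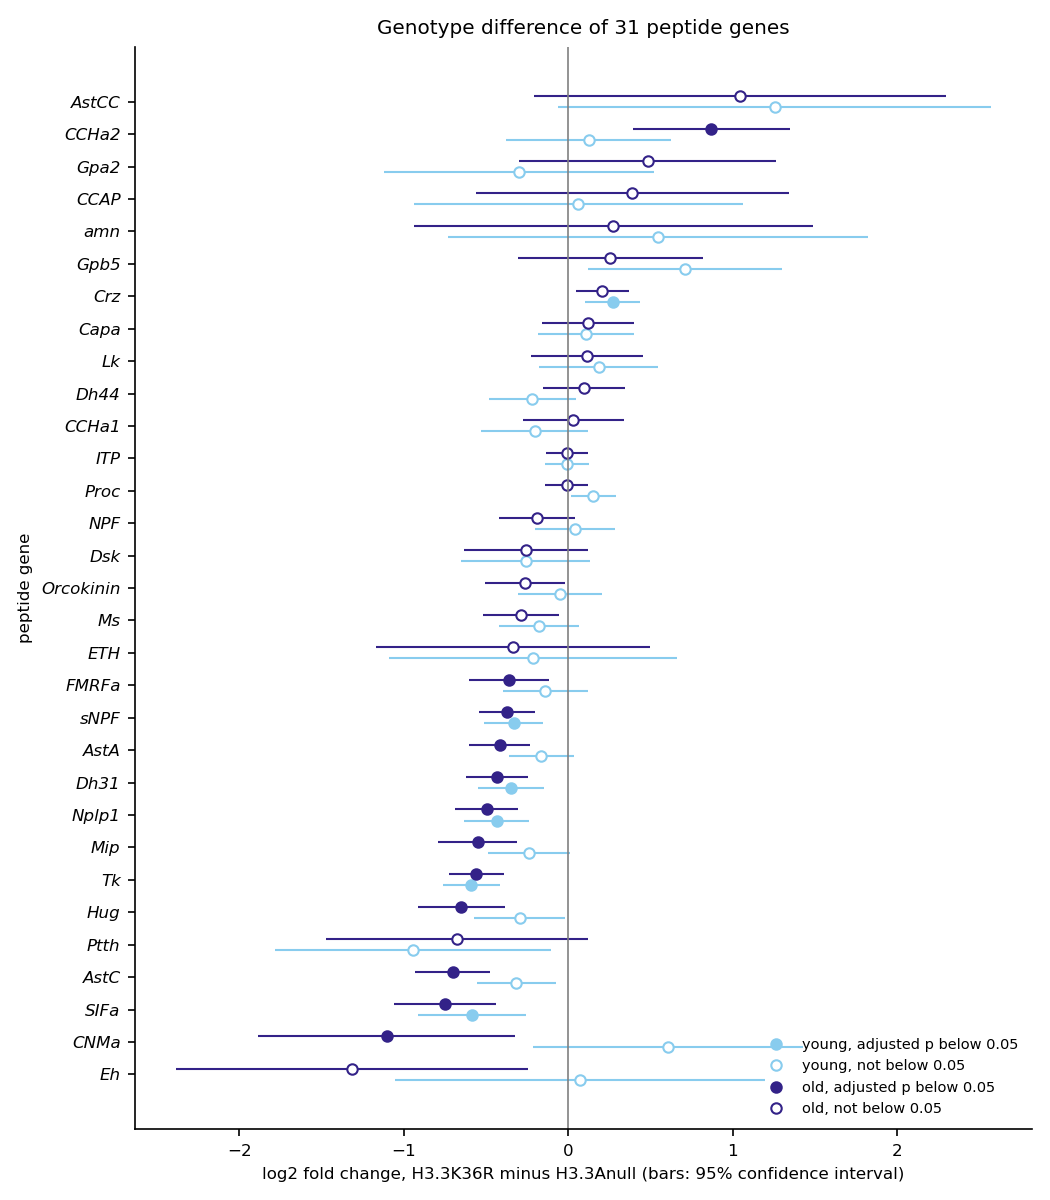
Log2 fold change of H3.3K36R minus H3.3Anull heads (x axis) for each of the 31 tested peptide genes (y axis), with 95% confidence intervals from limma, in young (light blue) and old (dark blue) heads. Filled points have an adjusted p under 0.05. In old heads the filled points lie to the left of 0 except for CCHa2.

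Tk was the peptide gene with the smallest adjusted p for genotype at both ages (FBgn0037976, chromosome arm 3R from 11994175 to 12005473 of dm6, minus strand). In young heads Tk stood at 1219.6 to 1749.9 (median 1499.9) normalized counts in H3.3Anull and at 967, 1024, 871, 1110.2 and 902 in H3.3K36R, for a log2 fold change of -0.59 (SE 0.084, adjusted p = 7.4e-05). In old heads it stood at 898 to 1379 (median 1078) in H3.3Anull and 622 to 889 (median 768) in H3.3K36R, for a log2 fold change of -0.56 (SE 0.080, adjusted p = 2.7e-05). All H3.3K36R libraries were below all H3.3Anull libraries of the same age. Within sexes the log2 fold changes of Tk were -0.53 (adjusted p = 0.0054) in young females, -0.69 (adjusted p = 0.0017) in young males, -0.57 (adjusted p = 0.0010) in old females and -0.54 (adjusted p = 0.0020) in old males.

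Among the other feeding and gut peptides, sNPF, which promotes feeding and growth, stood at 3379 to 5059 (median 4196) normalized counts in old H3.3Anull and 2597 to 3748 (median 3336) in old H3.3K36R heads, for a log2 fold change of -0.37 (SE 0.082, adjusted p = 0.0024). The groups overlapped when the sexes were pooled and were apart within each sex. In young heads sNPF was also lower in H3.3K36R, at -0.33 (adjusted p = 0.016). In old heads AstA was -0.42 (adjusted p = 0.0020) and Hug -0.65 (adjusted p = 0.00081), and neither passed in young heads, at -0.16 (adjusted p = 0.30) and -0.30 (adjusted p = 0.18). NPF (-0.19, adjusted p = 0.27), Dsk (-0.26, adjusted p = 0.36) and CCHa1 (0.030, adjusted p = 0.92) did not pass in old heads.

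CCHa2 was the peptide gene that was higher in old H3.3K36R heads (chromosome arm 3R from 13389059 to 13395197 of dm6, minus strand). In old females it stood at 3549, 1753 and 1954 normalized counts in H3.3Anull and 3911, 4036 and 3169 in H3.3K36R. In old males it stood at 1747, 957 and 1292 in H3.3Anull and 2495, 2753 and 2825 in H3.3K36R. The male groups were apart and the female groups overlapped, for a log2 fold change of 0.87 (SE 0.23, adjusted p = 0.0100). The young values were 3786, 2788, 2621, 4132 and 4686 in H3.3K36R and 1934 to 3934 (median 3406) in H3.3Anull. CNMa was lower in old H3.3K36R heads, at 311, 513 and 309 against 70.7, 200.1 and 125 in females and 53.9, 135 and 159 against 61.8, 71.1 and 72.8 in males, H3.3Anull first. CNMa was apart between genotypes in females and overlapped in males, for a log2 fold change of -1.10 (SE 0.38, adjusted p = 0.043), and its call was lost in 11 of the 23 refits that each left out 1 library. The call was also lost without a filter on low counts, and without libraries with over 50% or over 40% of the silent genes read. The 513 came from old female H3.3Anull replicate 2, where 57.2% of the silent genes were read. Midgut markers summed to 807 to 5985 normalized counts in old H3.3Anull and 4361 to 12371 in old H3.3K36R libraries, with 2 of 6 higher in H3.3K36R. Their part in the values of CCHa2 and CNMa was not tested.

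**Figure D4:**
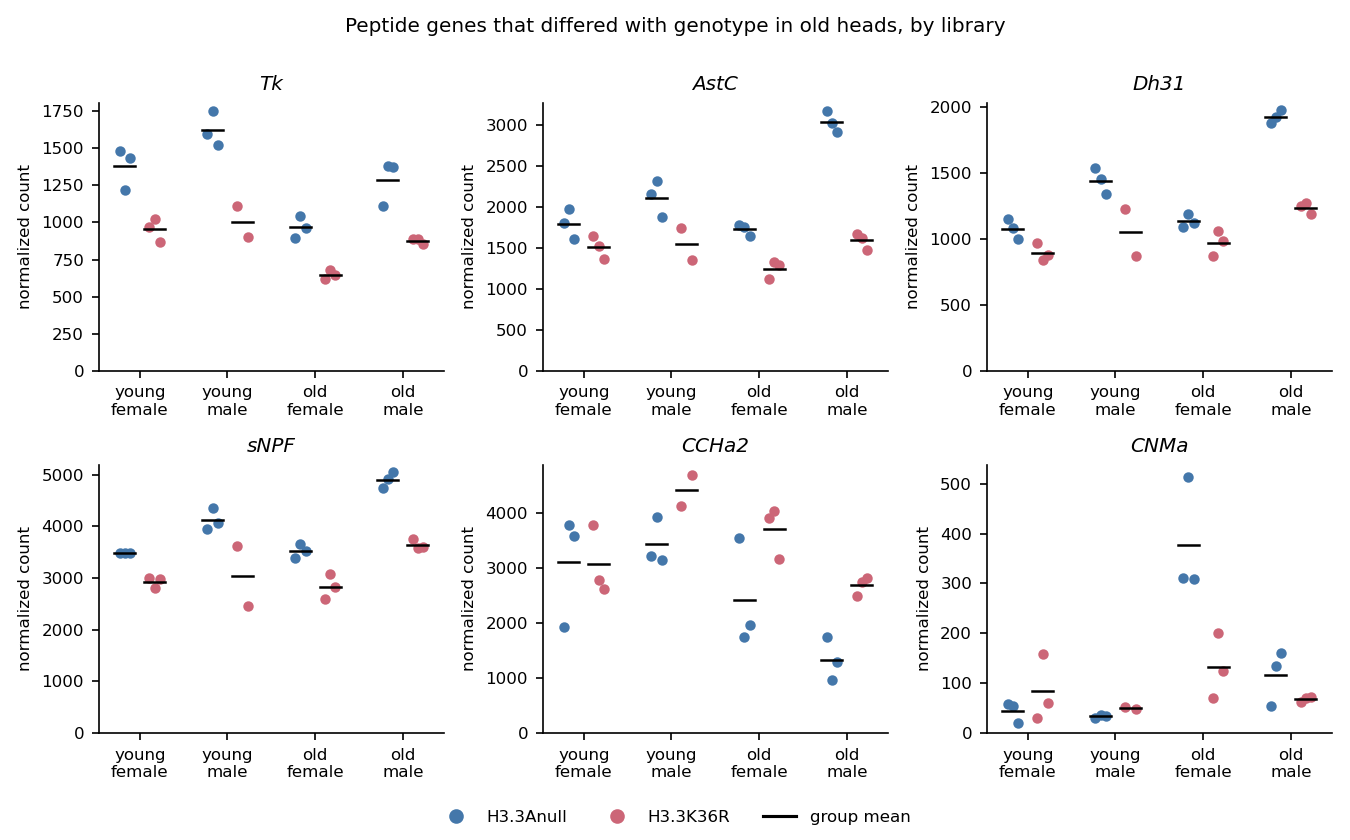
Normalized counts (y axis, from 0) of 6 peptide genes in each of the 23 libraries, by age and sex (x axis), H3.3Anull in blue and H3.3K36R in red, with a black bar at each group mean. In old heads of both sexes the H3.3K36R means of Tk, AstC, Dh31, sNPF and CNMa lie below and that of CCHa2 above the H3.3Anull means.

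Of the muscle and allatoregulatory peptides, AstC had the largest genotype difference in old heads among those that passed (chromosome arm 2L from 11076165 to 11081399 of dm6, minus strand). In old females it stood at 1772, 1753 and 1644 normalized counts in H3.3Anull and 1120.4, 1325 and 1285 in H3.3K36R. In old males it stood at 3164, 3025 and 2904 in H3.3Anull and 1673, 1624 and 1471 in H3.3K36R. The genotypes were apart in each sex, for a log2 fold change of -0.70 (SE 0.11, adjusted p = 7.3e-05). In young heads AstC gave -0.32 (adjusted p = 0.090). Mip stood at 813 to 1227 (median 1009) in old H3.3Anull and 634 to 765 (median 656) in old H3.3K36R heads with no overlap, for a log2 fold change of -0.55 (SE 0.12, adjusted p = 0.0015). FMRFa was -0.36 (adjusted p = 0.036) in old heads, a call lost in 6 of those 23 refits, and Ms (-0.29, adjusted p = 0.077) and Proc (-0.011, adjusted p = 0.93) did not pass.

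Dh31, a diuretic hormone that also promotes waking, was the water balance peptide that differed with genotype. In old females Dh31 stood at 1089.7, 1189 and 1125 normalized counts in H3.3Anull and 869.6, 1060.2 and 988 in H3.3K36R. In old males it stood at 1879.7, 1926 and 1977 in H3.3Anull and 1253, 1277 and 1189 in H3.3K36R. H3.3K36R was below in both sexes, for a log2 fold change of -0.43 (SE 0.092, adjusted p = 0.0017). In young heads Dh31 gave -0.35 (adjusted p = 0.024). Dh44, Capa, ITP and Lk did not pass at either age, with log2 fold changes in old heads of 0.10, 0.12, -0.0075 and 0.11.

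SIFa and Nplp1 were lower with age and lower again in H3.3K36R. In old heads SIFa stood at 166 to 254 (median 218) normalized counts in H3.3Anull and 106 to 141 (median 129) in H3.3K36R, for a log2 fold change of -0.75 (SE 0.15, adjusted p = 0.0010), and the groups were apart. In young heads SIFa gave -0.59 (adjusted p = 0.021), and Crz was higher at 0.27 (adjusted p = 0.038). In the 23 refits that each left out 1 library, the Crz call was lost in 7 that of SIFa in 4 and that of Dh31 in 2. Nplp1 stood at 1869 to 2403 (median 2017) in young H3.3Anull and at 1670.0, 1388, 1443, 1820.3 and 1272 in young H3.3K36R heads with no overlap, for a log2 fold change of -0.43 (SE 0.10, adjusted p = 0.0051). In old heads Nplp1 gave -0.50 (adjusted p = 0.00043). Orcokinin did not pass with genotype, at -0.049 (adjusted p = 0.85) in young and -0.26 (adjusted p = 0.13) in old heads.

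Within sexes, 2 genes differed in young females, both lower in H3.3K36R, against 3.89% of all tested genes called, and 6 differed in young males, all lower (4.63% called). In old females 6 differed, 5 of them lower (10.8% called), and in old males 11 differed, 10 of them lower (8% called). These shares of all tested genes count both directions, and shares by direction were not taken within sexes. AstC gave -0.93 (adjusted p = 1.3e-05) in old males and -0.47 (adjusted p = 0.0067) in old females, and Mip -0.85 (adjusted p = 0.00071) in old males and -0.25 (adjusted p = 0.30) in old females. Hug was lower in both sexes when old, at -0.61 and -0.69. No peptide gene had a sex by genotype interaction at an adjusted p under 0.05, against 0.048% of all tested genes called by limma. At an unadjusted p under 0.05 there were 3 of the 31, beside 5.2% of all tested genes. Young male H3.3K36R replicate 3 had the lowest neuronal marker sum, and without it 5 of the 6 calls in young heads and all 12 in old heads were kept. Without the 5 libraries in which over 40% of the silent genes were read, the calls of Tk and Nplp1 were kept in young heads and the other 4 lost. In old heads 11 of the 12 calls were kept and that of CNMa was lost. This alternative was chosen after seeing the data.

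A test of whether the genotype difference changed with age addresses the interaction that the study's model holds. By limma, 0 of the 31 peptide genes passed, against 2.22% of all tested genes, with 3 at an unadjusted p under 0.05, beside 13.2% of all tested genes. edgeR on the recovered reads also called 0, and DESeq2 called 1, CNMa. The median interaction of the 31 was -0.11 on the log2 scale, beside -0.02 over all tested genes. The value of CNMa by limma was an interaction of -1.71 (SE 0.55, adjusted p = 0.12), with a 95% confidence interval of -2.84 to -0.58. For CCHa2 it was an interaction of 0.74 (SE 0.33, adjusted p = 0.34), and for AstC an interaction of -0.39 (SE 0.16, adjusted p = 0.27). A difference in genotype that passed in old and not in young heads was therefore not shown to differ between ages for any of the 31 by this test.

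The third question was how the sexes differed. Over both ages and genotypes 13 of the 31 genes differed (41.9%), 2 higher and 11 lower in females, against 28.9% of all tested genes called, 14.1% higher and 14.8% lower. The median log2 fold change (female minus male) was -0.16, beside -0.02 over all tested genes. Eh and CNMa were higher in females, and Dh31, AstC, Crz, Dsk, Hug, SIFa, Tk, sNPF, AstA, NPF and Nplp1 were lower. Of the 11, 8 were also lower in old H3.3K36R than in old H3.3Anull heads. These 2 comparisons share libraries, and the share of all tested genes that were lower in both was not taken. A link between sex and genotype was therefore not tested by this overlap. Of the glial markers 3 of 5 were also lower in females (median -0.32), with sums of 40896 to 85063 normalized counts in females and 55789.6 to 104484 in males. Of the neuronal markers 1 of 6 was lower (median -0.10), and none of the 4 eye markers passed (median -0.10). Of the 6 fat body markers (Yp1, Yp2, Yp3, fit, Lsp2 and to) 5 were higher, with sums of 1297880.0 to 3914533 in females and 10983 to 529391 in males. Medians over the libraries were 667330, 327411 and 244973 for the yolk protein genes Yp1, Yp2 and Yp3, and at most 14962 for fit, Lsp2 and to. Yp1 alone stood at 667330 to 1912863 in females and 990 to 253930 in males. The sum thus followed the yolk protein genes and cannot show a different share of fat body. The part of these markers in the sex differences, those of Eh included, was not tested.

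Dh31 was the gene with the smallest adjusted p among those lower in females. Besides the old libraries above, Dh31 stood at 1151, 1087 and 999 normalized counts in young H3.3Anull females and 1538, 1454 and 1341 in young H3.3Anull males. In young H3.3K36R heads it stood at 969, 843 and 878 in females and 1232 and 870.4 in males. Females were below males in each group except young H3.3K36R, where the values overlapped, for a log2 fold change of -0.45 (SE 0.066, adjusted p = 2.2e-05). AstC gave -0.38 (adjusted p = 0.0010) and Crz -0.35 (adjusted p = 4.8e-05), both lower in females. Hug (-0.34, adjusted p = 0.0067), SIFa (-0.34, adjusted p = 0.021), Dsk (-0.35, adjusted p = 0.048), Tk (-0.30, adjusted p = 0.00044), sNPF (-0.29, adjusted p = 0.00070), AstA (-0.28, adjusted p = 0.0022), NPF (-0.24, adjusted p = 0.028) and Nplp1 (-0.20, adjusted p = 0.024) were lower too. Ms, Proc, Mip, Orcokinin, FMRFa, ITP and Dh44 did not pass, with log2 fold changes between -0.22 and 0.038.

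**Figure D5:**
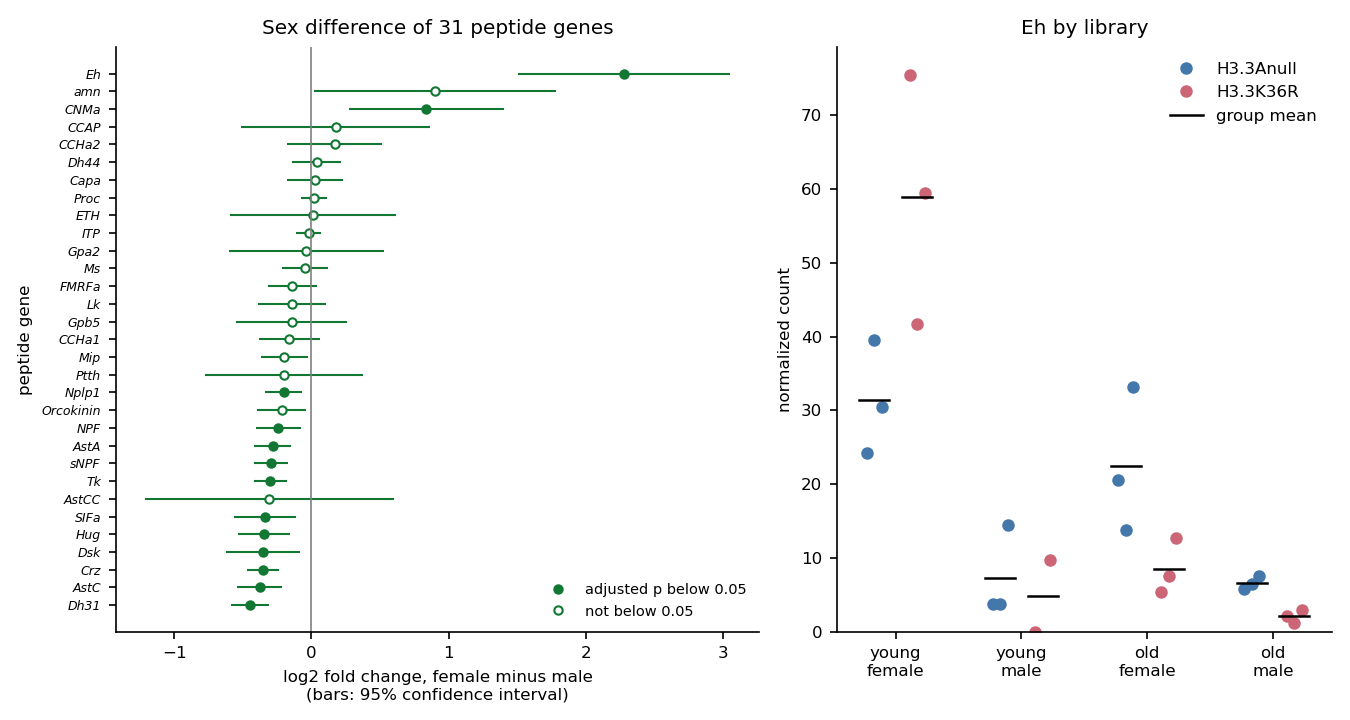
Left, log2 fold change of female minus male heads (x axis) with 95% confidence intervals from limma for the 31 tested peptide genes (y axis), filled where the adjusted p was under 0.05. Right, normalized counts of Eh (y axis, from 0) in each library by age and sex (x axis), H3.3Anull in blue and H3.3K36R in red, with a black bar at each group mean. Eh is higher in females in all 4 combinations of age and genotype.

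Eh, which drives the behaviour of shedding the old cuticle, was a gene of low level whose sex difference exceeded that of the others (chromosome arm 3R from 17446642 to 17448858 of dm6, minus strand). In young H3.3Anull heads Eh stood at 24.3, 39.5 and 30.5 normalized counts in females and 3.80, 3.77 and 14.4 in males, and in old ones at 20.6, 13.8 and 33.2 in females and 5.72, 6.43 and 7.50 in males. In young H3.3K36R heads it stood at 75.5, 41.7 and 59.5 in females and 0 and 9.77 in males, and in old ones at 5.33, 7.57 and 12.7 in females and 2.17, 1.15 and 2.87 in males. Every female library was above the males of its age and genotype, for a log2 fold change of 2.28 (SE 0.37, adjusted p = 7.5e-05). Eh was also lower in old than in young H3.3K36R heads, for a log2 fold change of -1.60 (SE 0.54, adjusted p = 0.022), and in old H3.3K36R than in old H3.3Anull heads it gave -1.31 (adjusted p = 0.080), which did not pass by limma.

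Within the 4 pairs of groups, the sexes differed in 1 gene in young H3.3Anull heads (3.78% of all tested genes called) and in 11 in old H3.3Anull heads, 9 of them lower in females (12.1% called). In H3.3K36R they differed in 1 gene, Eh, when young (1.54% called, with 2 male libraries) and in 6, all lower in females, when old (19.6% called). The shares of all tested genes count both directions, and shares by direction were not taken within these pairs. In old H3.3Anull heads AstC gave -0.81 (adjusted p = 0.00010), Dh31 -0.76 (adjusted p = 0.00013), Crz -0.57 (adjusted p = 0.00081) and CNMa 1.79 (adjusted p = 0.024). In old H3.3K36R heads the same genes gave -0.36 (adjusted p = 0.024), -0.35 (adjusted p = 0.022), -0.25 (adjusted p = 0.080) and 0.81 (adjusted p = 0.29). The difference between these pairs of groups was tested only as the interactions given above. Without the 5 libraries with over 40% of the silent genes read, 9 of the 13 sex calls were kept, and those of CNMa, Dsk, Nplp1 and SIFa were lost. The Dsk call was lost in 16 of the 23 refits that each left out 1 library, that of NPF in 5 and that of Nplp1 in 1, without young male H3.3K36R replicate 1.

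In all, 20 of the 31 genes passed in at least 1 of the 6 comparisons and 11 in none. The share of all tested genes that passed in at least 1 was not taken, so this count is not a trait of the peptide genes. Of these 11, ITP, Capa, Lk and CCHa1 were well read, with 141 to 331 normalized counts for Capa, 70.0 to 154 for Lk and 76.8 to 156 for CCHa1. The widest interval of ITP was that of the interaction, -0.19 to 0.18 on the log2 scale, and its genotype interval in old heads was -0.13 to 0.12. The glycoprotein hormone subunits Gpa2 (3.55 to 23.3 normalized counts) and Gpb5 (7.91 to 36.8), which together bind the receptor Lgr1, and prothoracicotropic hormone (Ptth, 1.26 to 32.8), which drives ecdysone release, were low. Ecdysis-triggering hormone (ETH, 2.16 to 21.1), crustacean cardioactive peptide (CCAP, 0.938 to 12.9), AstCC (0.817 to 28.2) and the memory gene amnesiac (amn, 0 to 34.3) were at or near the limit of what these libraries show. The age interval of ETH in H3.3Anull heads, 0.11 to 1.77, lay above 0, but ETH did not pass after adjustment. Old ETH libraries were above the young ones in H3.3Anull heads of each sex and in H3.3K36R males, and overlapped in H3.3K36R females. The age interval of AstCC in H3.3Anull heads was -1.69 to 0.81, so that sizeable differences of AstCC would not be detectable at this depth. The 3 highest amn values came from libraries with over 40% of the silent genes read, and this was not tested.

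Exon positions on the opposite strand are shared by amn with Hers, CCAP with CG6972, ETH with asRNA:CR43257, ITP with CG4622, Lk with asRNA:CR44843, Ptth with cold and SIFa with Start1. The deposited counts are labelled forStrand, which points to counting by strand, but the setting itself is not stated in the sources used here. If counting was not by strand, reads of these 7 peptide genes may include reads of the other gene, and this was not tested.

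The receptors through which peptides act were set beside the ligands as a list of 37 genes, all of which were tested. With age 2 were higher and 13 lower in H3.3Anull and 1 higher and 18 lower in H3.3K36R heads, or 40.5% and 51.4% of the list beside 41.9% and 40.4% of all tested genes. Lower were 20.4% and 19.9% of all tested genes. The peptide genes stood at 10 higher and 5 lower in H3.3Anull and at 8 higher and 6 lower in H3.3K36R heads. In old H3.3Anull heads the myosuppressin receptor MsR1 gave -0.71 (adjusted p = 1.1e-05) and the allatostatin C receptor AstC-R2 -0.69 (adjusted p = 1.4e-05), whereas Ms itself was higher. In old H3.3K36R heads MsR2 gave -1.18 (adjusted p = 1.7e-08). With genotype 3 receptors were higher and 12 lower in young and 2 higher and 19 lower in old H3.3K36R heads, with medians of -0.24 and -0.32, or 40.5% and 56.8% of the list beside 9.21% and 18.6% of all tested genes. The receptor of pigment-dispersing factor (Pdfr) was higher at both ages (0.37, adjusted p = 0.00069 and 0.53 (adjusted p = 2.4e-06)), and MsR2 (-0.77, adjusted p = 9.9e-06) and the corazonin receptor CrzR (-0.74, adjusted p = 1.0e-05) were lower in old heads. With sex 1 was higher and 16 lower in females (45.9%, beside 28.9% of all tested genes), among them the receptor of SIFamide, SIFaR, at -0.42 (adjusted p = 0.0028). In the interaction 1 receptor was higher, ETHR (0.66, adjusted p = 0.016), and 1 lower, MsR2 (-0.75, adjusted p = 0.0079), or 5.41% beside 2.22%.

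Of 16 genes of peptide processing and release, 1 was higher and 8 lower with age in H3.3Anull, and 0 higher and 9 lower in H3.3K36R heads, 56.2% of the list in each, beside 41.9% and 40.4% of all tested genes. The chaperone of prohormone convertase 2 (7B2) was -0.35 (adjusted p = 8.8e-05) and -0.53 (adjusted p = 1.3e-06). With genotype 3 were lower at each age and none higher (18.8%, beside 9.21% and 18.6%), with Fur1, a furin-like protease, at -0.32 (adjusted p = 0.023) in young heads and Pal2, an amidating enzyme, at -0.26 (adjusted p = 0.0012) in old heads. In females 1 was higher and 9 lower (62.5%, beside 28.9%). The median log2 fold changes of the 16 were -0.20 and -0.22 with age in H3.3Anull and H3.3K36R, -0.15 and -0.12 with genotype in young and old heads, and -0.27 with sex. Of 5 neprilysins, which degrade peptides outside the cell, Nep1 was higher in young and old H3.3K36R heads (0.61, adjusted p = 2.7e-05 and 0.35 (adjusted p = 0.0026)) and lower in females (-0.46, adjusted p = 1.5e-06). Of 7 other peptide precursors, pigment-dispersing factor (Pdf), the output peptide of the clock neurons, was higher with age in H3.3Anull (0.74, adjusted p = 2.1e-06) and lower in old H3.3K36R heads (-0.91, adjusted p = 4.5e-07), with an interaction of -0.71 (adjusted p = 0.0079). Natalisin, which is related to tachykinin and acts in courtship, was lower in H3.3K36R at both ages (-0.36, adjusted p = 0.037 and -0.69 (adjusted p = 4.4e-05)). Nplp3 gave -3.33 (adjusted p = 3.6e-08) with age in H3.3Anull and -3.36 (adjusted p = 6.3e-08) in H3.3K36R heads. Counts called over the neprilysins and the other precursors are not given here. The genes named from them had the smallest adjusted p and do not describe these lists.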

How the data were processed

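The peptide genes, gene lists, tests and alternatives were chosen with earlier results of these data known. Reads were mapped to dm6 by the authors (STAR 2.7.7a) and counted per gene (featureCounts of Subread 2.0.3), and the authors deposited the signal of each gene as a normalized count, the read count divided by a DESeq2 1.34.0 size factor over all 24 libraries. Versions come from the submitters' processing notes. The annotation release is not given in the sources used here, and the strand setting only through the label forStrand of the deposited counts. Dividing by each library's smallest step gave whole reads for 100% of values (tolerance 0.0001).

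Genes with at least 10 normalized counts in 3 of 23 libraries were kept. limma 3.58.1 (R 4.3.3) with a trend was fitted to log2(normalized count + 1), as 4 groups of age and genotype with sex as covariate, and as 8 groups for contrasts within a sex, age or genotype. Two-sided p-values were adjusted over all 12493 genes (Benjamini-Hochberg) and passed under 0.05. A fold change on this scale understates the change of low genes. Named are all peptide genes that passed in at least 1 of 6 comparisons, and of each other list at most 2 genes per direction with the smallest adjusted p. Receptors, processing genes, neprilysins, other precursors and cell type markers were fixed lists. Coordinates and exon lengths came from the dm6 reference annotation, and levels were divided by exon length because no protein table was used here.

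Alternatives were pseudocounts of 0.5 and 5, no filter and a filter at 50, upper-quartile scaling, edgeR 4.0.16 (quasi-likelihood) and DESeq2 1.42.0 on recovered reads, a replicate block, all 24 libraries, exclusion of libraries with many silent genes read, and each library left out in turn. The fits were tested on simulated data. The chi-square between replicate libraries, averaged over genes, was 8.35 or more, so none was a repeat of another. Tables and plots were made in Python 3.11.15 (numpy 2.4.6, pandas 2.3.3, matplotlib 3.10.9).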

Additional observations from a re-analysis of the deposited data

Results flagged for a closer look

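Among 80 groups of 5 or 6 libraries looked at for single distant values, 2 peptide genes had a library apart from the rest, where chance gives about 1 group in 20. CCHa2 stood at 1934.4 normalized counts in young female H3.3Anull replicate 1, below the 3138.6 to 3933.7 of the other young H3.3Anull libraries. NPF stood at 223.2 normalized counts in old male H3.3K36R replicate 3, below the 254.7 to 275.2 of the other old H3.3K36R libraries.

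The library kept out of the tests, young male H3.3K36R replicate 2, held 3 peptide genes above every other library. CCAP stood at 24.9 normalized counts there, against at most 12.9. CCHa2 stood at 4713.8, against at most 4685.6, and Lk at 159.8, against at most 153.9. Its markers of the ventral nerve cord or abdomen summed to 1010.1 normalized counts, against at most 218.2 in the others, and their part in these 3 values was not tested.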

How the results depend on the processing

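Of 60 calls of peptide genes over 5 comparisons, 43 passed in the same direction under each of 34 alternatives and 1, Eh with sex, under the 33 that could be run for it, 16 were lost under at least 1 of them, and none reversed. Without the 5 libraries in which over 40% of the silent genes were read, chosen after seeing the data, 2 peptide genes differed with genotype in young heads against 6. DESeq2 called 1 gene in the interaction against 0 by limma. Refits that dropped a single library gave 14 to 17 genes for age in H3.3Anull, 11 to 16 for age in H3.3K36R, 4 to 6 for genotype in young heads, 10 to 13 for genotype in old heads, 0 to 1 for the interaction and 11 to 15 for sex. The 1 in the interaction was CNMa without young female H3.3K36R replicate 1 or old male H3.3Anull replicate 1, and Eh without young male H3.3K36R replicate 1. Upper-quartile scaling moved the median of all genes with age in H3.3Anull heads to 0.105 on the log2 scale. Of all genes, edgeR on the recovered reads called 5184 and 4884 with age in H3.3Anull and H3.3K36R, 1044 and 2198 with genotype in young and old heads, 192 in the interaction and 3521 with sex. DESeq2 called 486 in the interaction, against 277 by limma. The cause was not tested for any of these. Of 77 pairs of libraries with the same replicate number, 35 deviated from their group means with a correlation over 0.1 (mean 0.101, lowest -0.346), beside a mean of -0.0492 for pairs with different numbers. As deviations were taken from group means, the mean of different-numbered pairs largely follows from the other and is no separate comparison. As not every pair was over 0.1, the numbers were not taken to pair the samples. That rule is strict and cannot show that the numbers are without effect. With the replicate block the 6 counts were 15, 14, 6, 13, 0 and 14, and no call was lost. Genes under 50 normalized counts in every library have wide intervals, and for them missing calls say little.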

Other observations

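The 34 peptide genes together took 24896 to 36322 normalized counts per library. The median of ITP over the 23 libraries was 18.5%, and that of sNPF 12.35%, of the sum of the 34 medians. The highest sums came from the 3 old male H3.3Anull libraries, at 35969, 35312 and 36322, and the old male H3.3K36R libraries had 29345, 29198 and 28632. In old females the sums were 30052, 28701 and 28657 in H3.3Anull and 26060, 29151 and 27642 in H3.3K36R, where the genotypes overlapped. These sums are given without a test, since they weigh abundant genes most.

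Between replicates, ITP and Proc varied least, with pooled standard deviations within groups of 0.090 and 0.10 on the log2 scale, and among the tested genes AstCC and amn varied most, at 1.10 and 1.07.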
